A study of Mus musculus with 3 samples.

Results

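The genes described here are the 10 mouse genes for major histocompatibility complex (MHC) class II chains and the proteins that load them with peptide, measured in bulk RNA of the lung. They were chosen by name from a table of 53342 genes, and all 10 were found. They are H2-Aa, H2-Ab1, H2-Eb1, H2-Eb2, H2-DMa, H2-DMb1, H2-DMb2, H2-Oa, H2-Ob and Cd74. The lungs came from 3 male C57Bl/6 mice, named mouse 4, mouse 5 and mouse 6 after the last digit of their labels, with 1 library each. Every mouse had received microparticles of Mycobacterium abscessus into the trachea, in 50 µL at an amount equal to 1000000 bacteria, which were given so that granulomas would form. Every mouse was then injected under the skin each day for 3 weeks with 5 µg of MIA-602, an antagonist of growth hormone-releasing hormone, which the series studies in a model of sarcoidosis. All 3 libraries carry the same label and form 1 group. Unchallenged mice and challenged mice without MIA-602 were not analysed here, so neither the effect of the microparticles nor that of MIA-602 can be read from these values. No label states the age of the mice.

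Class II molecules are pairs of an α and a β chain that display peptides from engulfed material to CD4 T cells. In mice the classical pairs are I-A, encoded by H2-Aa and H2-Ab1, and I-E, encoded by H2-Ea and H2-Eb1. New pairs are held by the invariant chain, the product of Cd74, which blocks the peptide groove and guides the pair to endosomes. There proteases trim the invariant chain, and H2-DM, a pair of H2-DMa with an H2-DMb chain, exchanges its last fragment for peptide. H2-DO, a pair of H2-Oa and H2-Ob, inhibits H2-DM and is best known from B cells. Dendritic cells, B cells and activated macrophages are rich in class II, and mouse alveolar type 2 cells also make it. Class II promoters are known for an X box bound by the RFX complex and a Y box bound by NF-Y, both of which recruit the coactivator CIITA.

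The upstream sequences of these genes are shown because 7 of the 8 members with an entry in the RefSeq promoter table (build GRCm38.p6) held a Y-box-type motif with another short motif before it. Each entry runs from 250 bases before the gene's start to 50 after it. The windows are 70 bases long, written 5′ to 3′ on the strand of the gene. The second run of capitals in each is the Y-type motif GATTGG, the complement of a CCAAT box. The first run is AACNNATG, an X-box-type motif, in H2-Eb1, H2-Eb2, H2-DMb1, H2-DMb2 and H2-Ob, and the shorter GCAAC in H2-Aa and H2-Oa. GCAAC also overlaps the first bases of AACNNATG in H2-Ob, H2-Eb1 and H2-Eb2.
H2-Aa: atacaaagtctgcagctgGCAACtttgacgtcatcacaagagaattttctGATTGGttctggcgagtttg
H2-Eb1: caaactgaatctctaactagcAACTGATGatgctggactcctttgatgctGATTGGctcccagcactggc
H2-Eb2: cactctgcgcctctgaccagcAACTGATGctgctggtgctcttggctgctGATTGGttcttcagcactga
H2-DMb1: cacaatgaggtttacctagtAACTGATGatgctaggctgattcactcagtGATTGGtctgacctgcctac
H2-DMb2: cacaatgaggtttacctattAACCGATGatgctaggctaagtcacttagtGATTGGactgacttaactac
H2-Oa: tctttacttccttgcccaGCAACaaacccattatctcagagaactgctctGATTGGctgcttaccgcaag
H2-Ob: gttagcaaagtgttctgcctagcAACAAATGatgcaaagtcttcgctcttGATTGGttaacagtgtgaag

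The windows lie at chr17:34287853-34287922 on the minus strand for H2-Aa and, on the plus strand, at chr17:34305757-34305826 for H2-Eb1, chr17:34325524-34325593 for H2-Eb2, chr17:34153079-34153148 for H2-DMb1, chr17:34145108-34145177 for H2-DMb2, chr17:34092285-34092354 for H2-Oa and chr17:34238797-34238866 for H2-Ob. The first base of the Y-type motif stood between 101 bases (H2-Eb2) and 44 bases (H2-Oa) before the RefSeq start. The X-type motif began 29 bases before the Y-type motif in H2-Eb1 and H2-Eb2, 30 bases before it in both H2-DMb genes and 27 bases before it in H2-Ob. GCAAC began 32 bases before it in H2-Aa and in H2-Oa. Searched on both strands, GATTGG stood in 16.1% of the 32851 promoters of the table, AACNNATG in 8.86% and GCAAC in 35.2%. On the strand of the gene alone, GATTGG stood in 8.71%. The pair, with AACNNATG 15 to 45 bases upstream of GATTGG on the strand of the gene, stood in 20 promoters of 20 genes (0.0609%), and 5 of those genes were members. No share over the table was computed for GCAAC before GATTGG, through which alone H2-Aa and H2-Oa are among the 7 members shown. The letters and the spacing were chosen after the members' promoters had been read, so these counts are a description and no test. H2-DMa had 2 entries, without such a pair. H2-Ab1 and Cd74 had no entry in the table.

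**Figure D1:**
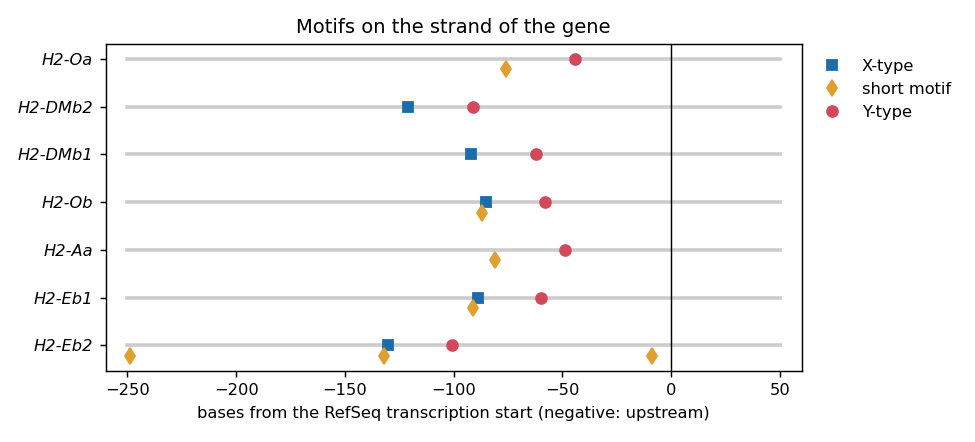
Positions of 3 short motifs on the strand of the gene in the promoters of 7 class II genes, in bases from the RefSeq start (x axis, start at 0); grey bars are the sequence searched, squares the X-type motif, circles the Y-type motif and diamonds the short motif GCAAC. In each gene the Y-type motif lies upstream of the start, between -101 and -44, with an X-type motif or GCAAC 27 to 32 bases before it.

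Total counts were 43845715 for mouse 4, 35674761 for mouse 5 and 31579465 for mouse 6. Levels below are CPM, counts divided by the library total and set to 1000000 counts per library, after TMM scaling, unless given per kilobase. Before the results, mouse 4 stood apart in transcripts of tissue other than alveolar lung. Skeletal muscle markers summed to 4427, 1614 and 1382 CPM in mice 4, 5 and 6, and squamous epithelium markers to 341, 126 and 109.6 CPM. All 5 muscle and all 4 squamous markers were highest in mouse 4, and all 4 club cell markers were lowest there, with summed levels of 8989, 24521 and 21709 CPM. The lung label was met in every library by the alveolar type 2 markers, which summed to 18916, 26275 and 23451 CPM. Of the thymic epithelium markers, whose tissue lies near the lung and makes class II, Foxn1 had 9, 1 and 2 counts and Psmb11 had 0, 0 and 1. The 4 thymic markers summed to 8.71, 6.17 and 8.80 CPM. The part of these tissues in the class II values was not tested.

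Cd74, H2-Ab1, H2-Aa and H2-Eb1 were among the 19 genes with the highest mean CPM in these lungs, the other 6 members were lower, and all 10 were lowest in mouse 5. Together they held 2.10, 1.38 and 1.79% of all counts in mice 4, 5 and 6, a mean of 1.76 ± 0.363% (SD, n = 3), and 1.59% without mouse 4. Cd74, H2-Ab1, H2-Aa and H2-Eb1 accounted for 94.8, 94.4 and 93.9% of the members' counts in those mice. In bulk RNA, fewer cells that make class II and less class II RNA per cell cannot be told apart. Markers of immune cells moved in the same order as some members, and those values follow the members.

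The genes of the I-A pair were both abundant in every mouse, and which of them was higher per kilobase depended on the transcript length used. H2-Aa (chr17:34282744-34287823, minus strand), the I-A α chain, had 4003, 2679 and 3727 CPM in mice 4, 5 and 6, a mean of 3470 ± 699 CPM (SD, n = 3). H2-Ab1 (chr17:34257689-34269419, plus strand), the I-A β chain, had 4398, 2775 and 3656 CPM, a mean of 3609.8 ± 812 CPM (SD, n = 3). By mean CPM, H2-Ab1 ranked 10 and H2-Aa 15 among the 53237 annotated genes. Both were highest in mouse 4 and lowest in mouse 5. Per kilobase of all annotated exons, the log2 ratio of H2-Aa over H2-Ab1 was -0.70, -0.62 and -0.54, a mean of -0.62 ± 0.08 (SD, n = 3). Per kilobase of the principal transcript alone, a length choice added after the data were seen, it was -0.03, 0.05 and 0.13, a mean of 0.05 ± 0.08. The exons of H2-Aa sum to 3798 bases in the annotation and its principal transcript has 1128, so the order of these 2 genes depends on the length used.

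The I-E β chain was also abundant, while its α partner was close to absent. H2-Eb1 (chr17:34305867-34316674, plus strand) had 3038, 1943 and 2444 CPM in mice 4, 5 and 6, a mean of 2475 ± 548 CPM (SD, n = 3). Per kilobase of exon its log2 ratio to H2-Ab1 was -0.14 ± 0.03 (SD, n = 3), and below 0 in 3 of 3 mice. With principal transcripts that ratio was -1.005 ± 0.03, in the same direction in each mouse. H2-Ea-ps (chr17:34341959-34344645), the I-E α gene, which is known to be disrupted in C57BL/6 mice, is not one of the 10 genes and had 1, 1 and 0 counts. Over the 3 libraries together it stood at 0.018 CPM, with an exact 95% Poisson interval of 0.0022 to 0.0651 CPM. Summed counts of 278642 for H2-Eb1 and 2 for H2-Ea-ps gave a ratio of 139321, with an exact 95% interval of 38568 to 1150424. These intervals cover counting error only.

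H2-Eb2 (chr17:34325665-34341412, plus strand), a close relative of H2-Eb1, was the lowest of the 10. It had 13.3, 10.04 and 13.4 CPM in mice 4, 5 and 6, from 573, 363 and 424 counts, and a mean of 12.2 ± 1.90 CPM (SD, n = 3). The exact 95% Poisson intervals were 12.2 to 14.4 CPM in mouse 4, 9.03 to 11.1 CPM in mouse 5 and 12.1 to 14.7 CPM in mouse 6. These intervals cover counting error only and not the spread between mice, for which the edgeR test described below gave an adjusted p of 0.995 for H2-Eb2. Per kilobase of exon, H2-Eb2 was 350-fold lower than H2-Eb1, a log2 ratio of -8.45 ± 0.17 (SD, n = 3). Its printed promoter window nevertheless holds the same AACTGATG and GATTGG, at the same spacing, as that of H2-Eb1.

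The invariant chain was the most abundant of the 10 transcripts in each mouse. Cd74 (chr18:60803848-60812652, plus strand), the one member outside the class II region, had 8849.8, 5449 and 6927 CPM in mice 4, 5 and 6. Its mean was 7075 ± 1705 CPM (SD, n = 3), which ranked 6 among all annotated genes, and 6243 CPM without mouse 4. Per kilobase of exon it exceeded H2-Ab1 by 1.62, 1.59 and 1.54 on the log2 scale, a mean of 1.58 ± 0.04 (SD, n = 3). With principal transcripts the difference was 0.75 ± 0.04. The ratio of invariant chain to β chain thus varied much less between mice than either gene did, with an SD of 0.04 beside 0.35 for Cd74 and 0.33 for H2-Ab1 on the log2(CPM + 0.5) scale.

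**Figure D2:**
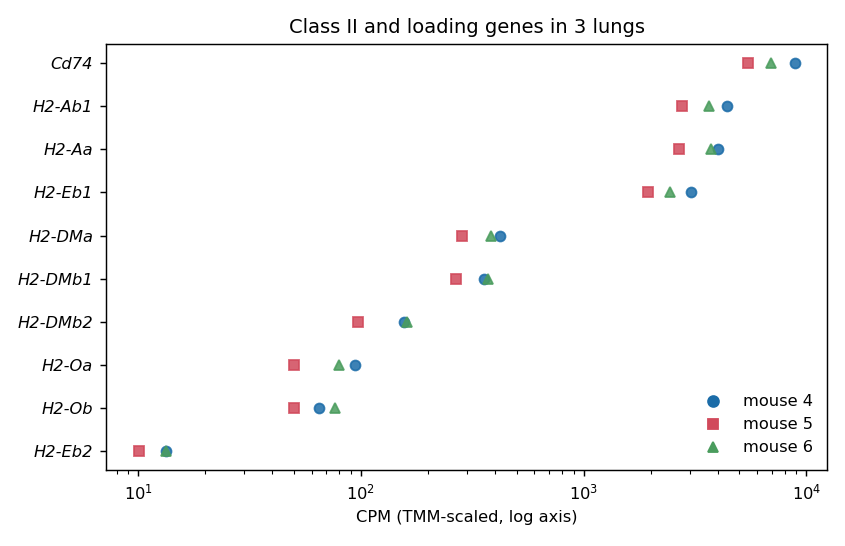
CPM of the 10 class II and loading genes on a log axis (x axis), with 1 symbol per mouse and genes ordered by mean CPM (y axis). Cd74, H2-Ab1, H2-Aa and H2-Eb1 sit at 1943 CPM or more in every mouse and H2-Eb2 near 12 CPM, and the square of mouse 5 is the lowest symbol of every gene.

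The genes of the peptide exchanger H2-DM formed a middle tier. H2-DMa (chr17:34119541-34139101, plus strand), its α chain, had 420.0, 283 and 382 CPM in mice 4, 5 and 6, a mean of 362 ± 70.7 CPM (SD, n = 3). H2-DMb1 (chr17:34153072-34160230, plus strand), one of its 2 β chain genes, had 356, 268.5 and 371 CPM, a mean of 332 ± 55.4 CPM. H2-DMb2 (chr17:34143307-34151555, plus strand), the other β chain gene, had 156, 96.5 and 160.7 CPM, a mean of 138 ± 35.7 CPM. H2-DMa was highest in mouse 4, whereas both β genes were slightly higher in mouse 6 than in mouse 4. H2-DMb2 stood below H2-DMb1 in each mouse, with log2 ratios per kilobase of exon of -1.25, -1.53 and -1.26, a mean of -1.35 ± 0.16 (SD, n = 3). These paralogues share sequence: 22.7% of the 50-base stretches of H2-DMb1 transcripts also occur in H2-DMb2 transcripts, and 21.2% of those of H2-DMb2 occur in H2-DMb1. Reads from these stretches could have been counted for either gene or dropped, so the split between them is uncertain.

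The α and β sides of H2-DM were not equal per length. H2-DMa over the sum of both β genes had a log2 ratio per kilobase of exon of -1.40 ± 0.10, and of -0.61 ± 0.10 with principal transcripts (SD, n = 3), below 0 in 3 of 3 mice each way. Of the exon bases of H2-DMa, 10.4% overlap Brd2 on the other strand, which had 10766, 9035 and 7939 counts. No source used here states whether counting was by strand, and reads of that overlap cannot be assigned. H2-DMa over H2-Aa was -3.11, -3.10 and -3.15 on the log2 scale in mice 4, 5 and 6, a mean of -3.12 ± 0.02 (SD, n = 3). That was the smallest SD of the 11 ratios computed.

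The genes of H2-DO, the inhibitor, were lower, and its chains were not ordered alike over the mice. H2-Oa (chr17:34092340-34095234, plus strand), the α chain, had 93.7, 50.2 and 79.4 CPM in mice 4, 5 and 6, a mean of 74.4 ± 22.1 CPM (SD, n = 3). H2-Ob (chr17:34238903-34254414, plus strand), the β chain, had 65.0, 50.1 and 76.5 CPM, a mean of 63.9 ± 13.2 CPM. H2-Oa was highest in mouse 4 and H2-Ob was highest in mouse 6, and both were lowest in mouse 5. Their log2 ratio per kilobase of exon was 2.46 in mouse 4, 1.94 in mouse 5 and 1.99 in mouse 6, a mean of 2.13 ± 0.29 (SD, n = 3), and 1.49 ± 0.29 with principal transcripts. Its SD was the largest of the ratios among the 10 members. H2-Oa shares 22.8% of its exon bases with the antisense gene BC051537, which had 30, 19 and 13 counts, few beside the 4036, 1817 and 2518 counts of H2-Oa.

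Set against H2-DM per kilobase of exon, the inhibitor was lower on both sides. H2-Oa over H2-DMa was -0.87, -1.20 and -0.97 on the log2 scale in mice 4, 5 and 6, a mean of -1.02 ± 0.17 (SD, n = 3). H2-Ob over the 2 H2-DMb genes was -4.64, -4.53 and -4.46, a mean of -4.54 ± 0.09. With principal transcripts the means were -1.70 and -3.80.

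Each of the 11 ratios lay on 1 side of 0 in 3 of 3 mice per kilobase of exon. The exact two-sided sign-flip permutation test gave p = 0.25 for each of them, also after adjustment over the 11 ratios, and 0.25 is the smallest p that 3 mice allow. From high to low, the levels per kilobase of exon were 4214 CPM for Cd74, 1406 for H2-Ab1, 1273 for H2-Eb1, 914 for H2-Aa, 197 for H2-DMb1, 105 for H2-DMa, 78.8 for H2-DMb2, 52.9 for H2-Oa, 11.9 for H2-Ob and 3.61 for H2-Eb2. Each neighbour in that order was higher than the next in 3 of 3 mice, with the narrowest gap between H2-Ab1 and H2-Eb1. With principal transcripts H2-Aa and H2-Ab1 took neighbouring places with no gap beyond their spread. H2-DMb1 then exceeded H2-DMa by only 0.12 ± 0.11 on the log2 scale (SD, n = 3).

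**Figure D3:**
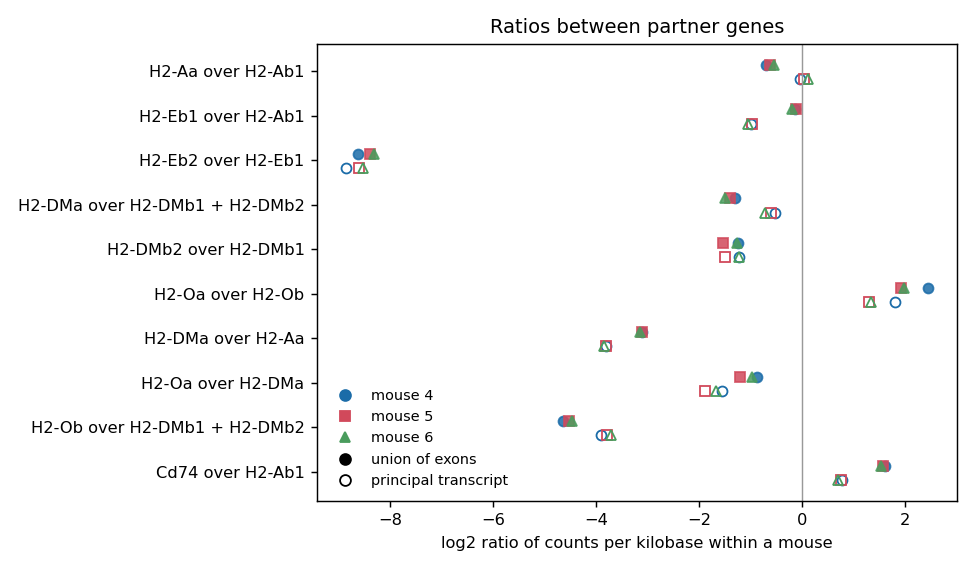
Log2 ratios of counts per kilobase between partner genes within a mouse (x axis), 1 row per ratio (y axis) and 1 symbol per mouse, filled for the length of all annotated exons and open for the principal transcript. The 3 symbols of a row lie close together beside the whole range of the axis, though some rows overlap, and the H2-Aa over H2-Ab1 symbols move to about 0 with principal transcripts.

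The 10 genes varied together over the mice. All 10 were lowest in mouse 5, as were 36.8% of the 17636 genes tested. Highest in mouse 4 and lowest in mouse 5 were 6 of the 10, H2-Aa, H2-Ab1, H2-Eb1, H2-DMa, H2-Oa and Cd74, against 19.7% of all genes. The other 4, H2-Eb2, H2-DMb1, H2-DMb2 and H2-Ob, were highest in mouse 6 and lowest in mouse 5, against 17.1% of all genes. The 10 genes share a tissue sample in each mouse and are not 10 independent observations. Mouse 4 over mouse 5 ranged from 1.297-fold for H2-Ob to 1.86-fold for H2-Oa. With mouse 4 set aside, mouse 6 over mouse 5 ranged from 1.26-fold for H2-Eb1 to 1.66-fold for H2-DMb2. The median SD over the mice was 0.316 on the log2(CPM + 0.5) scale for the 10 genes and 0.146 for all genes tested.

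A test of spread asked whether a gene varied more between the mice than genes of like abundance. In edgeR's quasi-likelihood fit, 0 of the 17636 genes (0%) passed an adjusted p of 0.05, and 867 (4.92%) had an unadjusted p under 0.05. None of the 10 class II genes passed, with edgeR adjusted p from 0.955 to 0.995. With 3 libraries the test had little power. Myh4, a skeletal muscle marker with 242, 90.3 and 70.8 CPM in mice 4, 5 and 6, had an edgeR adjusted p of 0.806. A gene that did not pass is therefore not shown to vary little. Of the 10, H2-Oa (edgeR unadjusted p = 0.0169) and H2-DMb2 (edgeR unadjusted p = 0.0317) fell under 0.05 before adjustment. In edgeR all 10 had a dispersion above the fitted trend, as did 44.1% of all genes, and their median log2 ratio to the trend was 1.496, against -0.29 for all genes. DESeq2 and limma likewise called 0 genes, with 207 and 879 under 0.05 before adjustment. In limma H2-Aa, H2-Ab1 and Cd74 lay below the trend (log2 ratios of -0.64, -0.48 and -1.49), and in DESeq2 H2-Eb2 did (-0.15). Without a filter on low counts, 629 of the 30751 genes then tested passed. Among them were H2-Oa (edgeR adjusted p = 0.00232) and H2-DMb2 (edgeR adjusted p = 0.0322). Without mouse 5, H2-Aa, H2-Eb2, H2-DMa, H2-DMb1 and H2-DMb2 fell below the trend.

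Of the 8 genes that act on class II promoters, the coactivator gene moved in the order of the main class II chains and most of the factors it joins did not. Ciita, the coactivator, had 116 CPM in mouse 4, 76.6 in mouse 5 and 95.9 in mouse 6, a mean of 96.2 ± 19.7 CPM (SD, n = 3). Creb1, which binds class II promoters near the X box, had 75.1, 76.3 and 70.4 CPM in mice 4, 5 and 6. Nfya, a subunit of the Y box factor, had 73.3, 62.1 and 71.1 CPM. Rfx5, the DNA-binding subunit of the X box complex, had 65.5, 56.6 and 67.2 CPM. Of the 8, 3 were lowest in mouse 5, against 36.8% of all genes tested. In the order mouse 4, 6, 5 were 2 of the 8, against 19.7% of all genes. The list's median SD was 0.076 on the log2 scale, against 0.316 for the class II genes, and 0 of the 8 passed the edgeR spread test (adjusted p of 0.955 for Ciita).

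Genes that process antigen and invariant chain followed the class II chains more closely than the promoter factors did. Several lists described below lay closer still to the members in their median profile, where the processing genes lay at a distance of 0.162. These were the partners of class II (0.131) and the markers of monocytes and macrophages (0.131), T cells (0.133) and conventional dendritic cells (0.145). Nearest were 4 class I genes from the same region (0.111). All 7 processing genes were highest in mouse 4, as were 5899 of the 17636 genes tested. Of the 7, 5 were lowest in mouse 5, against 36.8% of all genes, and Ctsl and Sppl2a were lowest in mouse 6. Ctss, the protease known for the last cuts of the invariant chain, had 3692, 2128 and 2411 CPM in mice 4, 5 and 6. Ctsb, a cysteine protease of lysosomes, had 2008, 1316 and 1601 CPM. Ctsd, an aspartic protease there, had 1838, 1147 and 1611 CPM, and Ifi30, which reduces disulfide bonds of antigens, had 535, 353 and 439 CPM. Mouse 4 was high and mouse 5 low in each of these 4. The median log2 ratio of mouse 4 over mouse 5 over all 7 genes was 0.599, beside 0.612 for the class II genes and 0.003 for all genes tested. None of the 7 passed the edgeR spread test.

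Genes for turnover of class II at the surface gave no common order. March8, a ubiquitin ligase of endosomes and the plasma membrane, had 52.0, 61.4 and 51.1 CPM in mice 4, 5 and 6. Cd83, which opposes the removal of class II, had 51.2, 46.5 and 56.4 CPM. March1, the ligase that marks class II for removal in antigen-presenting cells, had 48.0, 33.4 and 36.2 CPM. Of the 3, 2 were lowest in mouse 5, against 36.8% of all genes tested, and each was highest in a different mouse.

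Of the 6 partners of class II or of the invariant chain, 5 were lowest in mouse 5, against 36.8% of all genes tested. The other, Cxcr2, was lowest in mouse 6, with 10.9, 9.10 and 5.99 CPM in mice 4, 5 and 6. Cd44, a co-receptor of Cd74, had 339, 266 and 303 CPM in mice 4, 5 and 6. Mif, the ligand of Cd74, had 211, 116 and 162 CPM. Cxcr4, a receptor that also joins Cd74 in binding Mif, had 157, 110.0 and 114 CPM. Cd4, the co-receptor of T cells that read class II, had 64.7, 40.3 and 66.2 CPM. The ligand Mif showed one of the wider gaps, 1.82-fold between mouse 4 and mouse 5, and Cd4 was level between mice 4 and 6.

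Interferon-γ is the best known inducer of Ciita and class II. Of 6 genes from the cytokine to Irf1, 5 were lowest in mouse 5. Irf1, a transcription factor that acts on Ciita, had 442, 359.9 and 503 CPM in mice 4, 5 and 6. Ifngr1, the ligand-binding receptor chain, had 197, 200.05 and 198 CPM, and Jak1, a receptor kinase, had 206, 185 and 186 CPM. Ifngr2, the other receptor chain, had 154, 139.7 and 141 CPM. Irf1 was lowest in mouse 5 and highest in mouse 6, while the ligand-binding chain was nearly flat. Jak1 and Ifngr2 were nearly level between mice 5 and 6. The list's median log2 ratio of mouse 6 over mouse 5 was 0.042, beside 0.449 for the class II genes. None of the 6 passed the edgeR spread test.

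**Figure D4:**
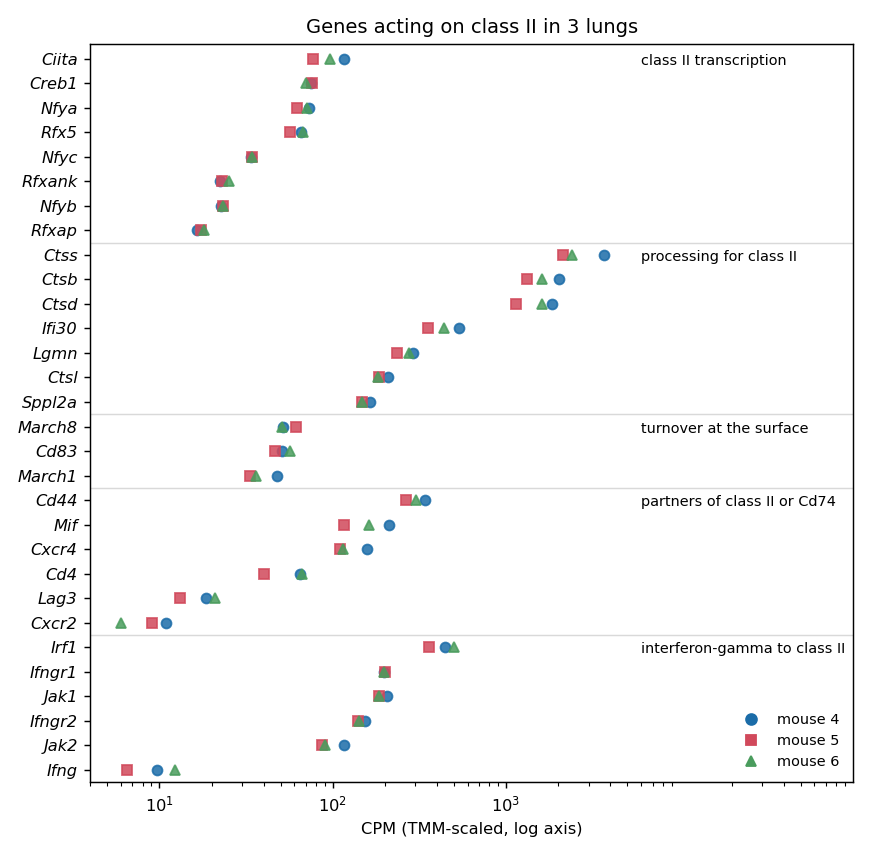
CPM on a log axis (x axis) of the genes that act on class II, grouped by role and ordered by mean CPM within a role (y axis), with 1 symbol per mouse. Ctss, Ctsb, Ctsd and Ifi30 show mouse 4 high and mouse 5 low, the promoter factors other than Ciita lie close together, and Ifngr1 is nearly the same in all 3 mice.

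Markers of immune cells, among them cells that make class II and T cells, differed between the mice too, and their part in the class II values was not tested. Over all genes tested, 36.8% were lowest in mouse 5. All 5 B cell markers were lowest there, with summed levels of 299.5, 223 and 338 CPM in mice 4, 5 and 6. All 5 T cell markers were lowest in mouse 5, with sums of 224, 159 and 244 CPM. Of 5 markers of monocytes and interstitial macrophages, 4 were lowest in mouse 5 and all were highest in mouse 4, with sums of 1853, 1159 and 1544 CPM. Of 5 markers of conventional dendritic cells, 3 were lowest in mouse 5, with sums of 139, 114 and 149.6 CPM over all 5. The other 2, Zbtb46 (34.0, 34.4 and 38.0 CPM in mice 4, 5 and 6) and Cd209a, were lowest in mouse 4. Of 3 markers of plasmacytoid dendritic cells, 2 were lowest in mouse 5. These were Siglech, with 4.02, 3.35 and 6.84 CPM in mice 4, 5 and 6, and Ccr9, with 3.09, 2.54 and 4.13 CPM. Tcf4, highest in mouse 5 with 229, 283 and 254 CPM, made up most of the list's sums of 236, 289 and 265 CPM. No marker in these lists was at 0 in every mouse.

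Markers of alveolar type 2 cells and of endothelium went the other way. All 5 alveolar type 2 markers and all 4 endothelial markers were highest in mouse 5, the mouse lowest in class II. Over all genes, 6419 of the 17636 tested were highest there. The endothelial sums were 984, 1398 and 1016 CPM in mice 4, 5 and 6. Of the 5 alveolar macrophage markers, 3 were highest in mouse 5 and 1, Marco, was lowest there, with sums of 159, 197 and 194 CPM. Marco (76.0, 45.8 and 87.8 CPM) and Car4 (63.5, 130 and 89.8 CPM) made up most of these sums and went opposite ways in mouse 5. Car4 was highest there, as were the endothelial markers, so these sums are not read as a level of alveolar macrophages. All 3 erythroid markers were highest in mouse 5, with sums of 871, 1945 and 906 CPM. The part of alveolar type 2 cells and of these other cell types in the class II values was not tested.

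The marker list with the nearest profile was not the same for all members. Each gene's log2(CPM + 0.5) values, centred on their mean over the 3 mice, were set against the median profile of each list by Euclidean distance. The list of monocytes and interstitial macrophages was nearest for H2-Ab1 (distance 0.028), Cd74 (0.061), H2-Eb1 (0.066), H2-DMa (0.114), H2-Aa (0.128) and H2-Oa (0.175). The list of conventional dendritic cells was nearest for H2-DMb1 (0.013) and H2-Eb2 (0.064), the T cell list for H2-DMb2 (0.148) and the B cell list for H2-Ob (0.053). Some lists were almost tied: H2-Aa lay 0.136 from the T cell list, and H2-Eb2 lay 0.070 from the thymic epithelium list, whose markers were low. These distances rest on 3 libraries and describe order and size only. H2-Ob and H2-Oa, partners in 1 protein pair, thus lay nearest to different lists.

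**Figure D5:**
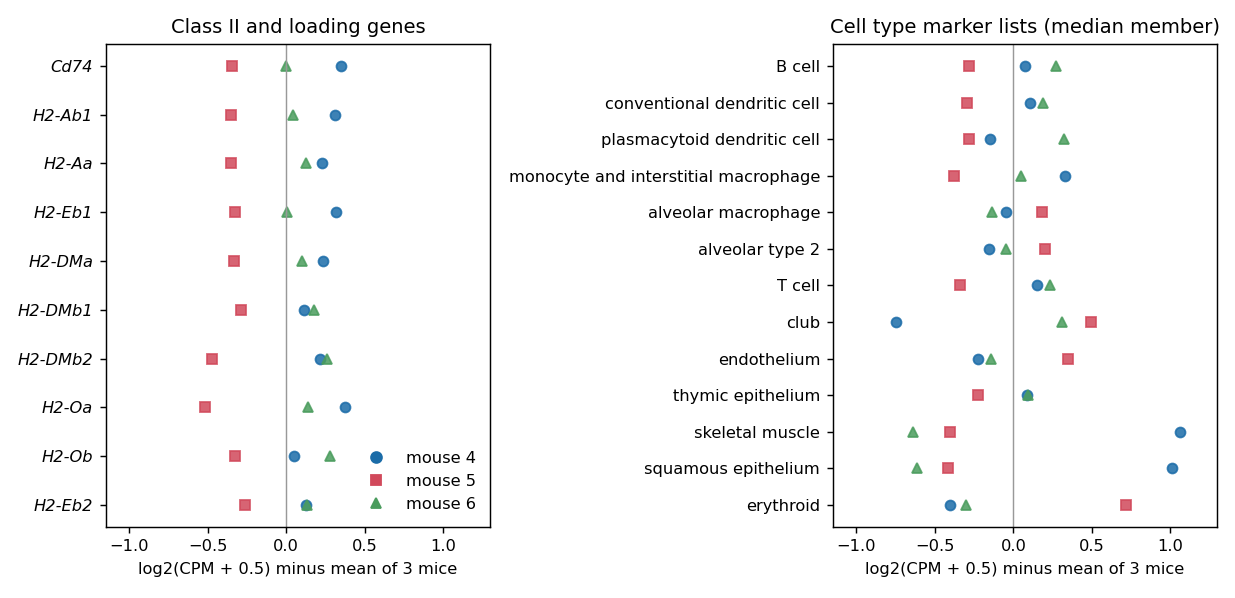
Difference of log2(CPM + 0.5) from the mean of the 3 mice (x axis), 1 symbol per mouse, for the 10 class II and loading genes on the left and for the median member of each cell type marker list on the right. Mouse 5 lies left of the other mice in every class II gene and in the B cell, T cell, dendritic cell and monocyte lists, and right of them in the alveolar type 2, endothelial and erythroid lists.

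The median profile of the 10 genes was 0.23, -0.34 and 0.13 in mice 4, 5 and 6 on that centred log2 scale. H2-Aa lay nearest to it (distance 0.013) and H2-Ob farthest from it (0.239). Among 10907 other genes with a mean of at least 10 CPM, the 5 nearest were Foxm1, Pnpla7, Cd6, Ptk2b and Hcls1, at distances of 0.012 to 0.019. Within a distance of 0.1 lay 160 of those genes (1.47%) and 2 of the 10 members, H2-Aa and H2-DMa, whose own values enter the median profile, so that the 2 shares cannot be compared. Hcls1, for example, had 209, 140.3 and 197 CPM in mice 4, 5 and 6. With 3 mice, many genes can share a profile with the members.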

How the data were processed

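Gene counts of 3 lung libraries, 1 per mouse, were used. Per the labels' protocols, RNA was isolated with Direct-zol and libraries were built with a Nugen mRNA kit. STAR 2.5.2a, Trim Galore 0.6.2 and bcl2fastq 2.17 appear in the submitters' processing notes, with build mm10. No source used here names the counting tool or says whether it used strand. The values deposited by the authors are raw counts per Ensembl gene, not normalized. GENCODE M21 gave symbols, 1-based coordinates and lengths for 53237 of 53342 identifiers. Whether the mice shared a cage or batch is not given.

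Low counts were filtered with filterByExpr (17636 genes kept), and CPM were scaled with TMM factors in edgeR 4.0.16 (R 4.3.3); 1 count equals 0.0232, 0.0277 and 0.0315 CPM in mice 4, 5 and 6. Spread was tested with an intercept-only quasi-likelihood fit and an upper-tail F test of the dispersion of each gene against the trend. Benjamini-Hochberg adjustment was over all genes. The test was also run on simulated counts with the dispersion of each gene set to the trend. Dispersions vary around the trend in these data, so that run does not give the power of the test here. DESeq2 1.42.0 and limma 3.58.1 were alternatives. Ratios within a mouse used counts plus 0.5. Reads carry no molecular identifiers in these values. The members, lists and named genes were chosen with earlier results of these data known. Named genes were mostly up to 4 of the highest mean CPM per list, and the 5 nearest profiles. Some others, such as Ifng and Cxcr2, were named as well. From the interferon-γ list, 1 gene is not reported here.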

Additional observations from a re-analysis of the deposited data

How the results depend on the processing

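No paired analysis was possible because all 3 mice form 1 group. Among the results that answer a comparison, 95 alternative values counted as unchanged. For the median class II level this meant within 1 SD of the main value, and the mean of each ratio so counted kept its side of 0. The size of the ratios could still move. Without division by length, the log2 ratio of H2-Oa over H2-Ob was 0.19 ± 0.29 beside 2.13, and that of H2-Aa over H2-Ab1 was -0.05 ± 0.08 beside -0.62. The latter lay above 0 in mouse 6, with 118194 counts of H2-Aa and 115935 of H2-Ab1. The log2 ratio of H2-Aa over H2-Ab1 changed to 0.051 with principal transcript lengths (added after the data were seen), which are shorter for H2-Aa. The count of genes past the spread threshold was 0, changed to 629 without a filter on low counts, and ranged from 0 to 13 when 1 mouse was left out (13 without mouse 4); the cause was not tested. The spread of single members relative to the trend, on the log2 scale, changed sign in limma for H2-Aa (-0.64), H2-Ab1 (-0.48) and Cd74 (-1.49), in DESeq2 for H2-Eb2 (-0.15), and without mouse 5 for 5 genes. Leaving out 1 mouse at a time, always with the lowest value without mouse 5, it ranged from -2.47 to 1.27 for H2-Aa, from -9.98 to 1.31 for H2-Eb2, from -0.51 to 2.22 for H2-DMa, from -2.80 to 1.97 for H2-DMb1 and from -3.29 to 3.65 for H2-DMb2. All 10 members stayed lowest in mouse 5, and 6 highest in mouse 4, with plain CPM and with DESeq2 size factors. With 3 libraries the exact ratio tests cannot give a p below 0.25, and with 2 not below 0.5.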

Other observations

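Between H2-DMb1 and H2-Ob on chromosome 17 lie 4 genes that serve MHC class I, chosen here after their values were seen: Psmb9 and Psmb8, which encode proteasome subunits, and Tap1 and Tap2, which encode the peptide transporter. They were not class II genes, and all 4 were lowest in mouse 5 and highest in mouse 6. Tap1 had 551 CPM in mouse 4, 385.5 in mouse 5 and 582 in mouse 6. Psmb8 had 418, 312 and 434 CPM in those mice, Tap2 had 404, 295 and 408 CPM, and Psmb9 had 291.5, 218 and 299.6 CPM. That order was also seen in H2-DMb1, H2-DMb2, H2-Ob and the more distant H2-Eb2, and in 17.1% of all genes tested. H2-Aa, H2-Ab1, H2-Eb1, H2-Oa and H2-DMa were highest in mouse 4. Of these, H2-DMa lies next to H2-DMb2, and H2-Eb1 lies between H2-Aa and H2-Eb2. Mice 4 and 6 differed little, with mouse 4 over mouse 6 from 0.947-fold for Tap1 to 0.991-fold for Tap2. A part of gene position in this order was not tested. None passed the edgeR test of spread, with adjusted p from 0.968 to 0.984.

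The dendritic cell list was not uniform. Clec9a and Xcr1, markers of one conventional dendritic cell subset, were lowest in mouse 5, with 44.3, 30.2 and 46.8 CPM for Clec9a and 32.3, 24.3 and 34.2 CPM for Xcr1 in mice 4, 5 and 6. Cd209a, a marker linked to monocyte-derived and other dendritic cells and singled out after its values were seen, was highest in mouse 5, with 2.88, 6.86 and 3.09 CPM.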
